A study of Mus musculus with 6 samples.

Results

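Oxct1, Acat1, Bdh1 and Aacs encode enzymes that make, interconvert or use ketone bodies, and Grhpr encodes an enzyme of glyoxylate and hydroxypyruvate metabolism. These 5 genes were found by symbol among the 21448 genes of the deposited table, and all 5 had a row and passed the filter on low values. They were picked by name with results of the same libraries already known, so the differences between groups given for them are descriptions and support nothing further. RNA came from lymphoma B cells of E mu-Myc transgenic mice, a strain in which a Myc transgene under an immunoglobulin heavy chain enhancer gives rise to B cell lymphoma. There were 3 libraries labelled PRDM15 knockout and 3 labelled wild type, all from the transgenic strain and all cultured in high-glucose medium with glutamine and IL7. Per the labels' protocols, deletion was induced with 4-hydroxytamoxifen (OHT) at 50 nM, ethanol served as the control, exposure lasted 24 hours, and cells were collected 3 days later. The titles give a group and a replicate number only. That the knockout libraries received OHT and the wild type libraries ethanol is inferred from these protocols, which list the OHT dose for both groups. If so, a difference between groups cannot be told apart from an effect of OHT itself. The recombinase on which OHT acts, the sex and the age of the mice are not named in the sources used here.

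Ketone bodies are small fuels made mainly in liver mitochondria from fatty acids and ketogenic amino acids and burned in other tissues. Bdh1 interconverts beta-hydroxybutyrate and acetoacetate in mitochondria, Oxct1 (also called SCOT) moves coenzyme A from succinyl-CoA onto acetoacetate and so commits it to oxidation, and Acat1 splits the resulting acetoacetyl-CoA into acetyl-CoA for the tricarboxylic acid cycle. Aacs activates acetoacetate in the cytosol, where it can feed fatty acid and sterol synthesis. Grhpr reduces glyoxylate and hydroxypyruvate; its loss causes a form of primary hyperoxaluria in humans, and it is not an enzyme of the ketone body route.

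The deletion could not be checked from the summed level of the targeted gene. Prdm15 was at 40.2, 40.9 and 39.2 in the libraries labelled knockout and at 29.2, 47.3 and 41.3 in the wild type libraries, in CPM (reads scaled to an effective library size), the unit of every level given here unless another is named. The groups overlap, and reads summed over all exons cannot tell if part of the gene was removed, so directions rest on the labels. The libraries labelled knockout held 28852951 to 41204788 reads assigned to genes and the wild type libraries 38581112 to 47255421. The 9 B-lineage markers in the table were detected in every library, with a summed level of 1785 to 2368 in the libraries labelled knockout and 1827 to 2404 in the wild type libraries. The 15 myeloid markers summed to 36.3, 2154 and 1162 in knockout replicates 1, 2 and 3 and to 58.8, 203.9 and 160.1 in wild type replicates 1, 2 and 3, so knockout replicates 2 and 3 stood apart. T cell markers summed to 53.8 to 103.4 in the knockout and 42.3 to 114.9 in the wild type libraries, mostly from Cd2 and Lck. The T cell receptor and coreceptor markers were highest in knockout replicate 2, where Cd8a was at 5.14, against at most 0.175 in the wild type libraries. Fibroblast and endothelial markers summed to 57.9 to 102.7 in the knockout and 52.3 to 63.4 in the wild type libraries, mostly from Pecam1, and erythroid markers to at most 0.865 in the knockout and 1.50 in the wild type libraries.

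Oxct1 and Grhpr were the members whose level was lower in the libraries labelled knockout by a wide margin, and their promoters are shown for that reason. They were chosen on this contrast, so nothing is read from the shared direction. Sequences are RefSeq's, build GRCm38.p6, from 250 bases before to 50 bases after the annotated start, on the plus strand at chr15:4026178-4026477 for Oxct1 and chr4:44981144-44981443 for Grhpr. Capitals mark the motif ACGTG, the core bound by HIF and some E-box factors, and the motif GGGCGG, a GC box, on either strand.
Oxct1: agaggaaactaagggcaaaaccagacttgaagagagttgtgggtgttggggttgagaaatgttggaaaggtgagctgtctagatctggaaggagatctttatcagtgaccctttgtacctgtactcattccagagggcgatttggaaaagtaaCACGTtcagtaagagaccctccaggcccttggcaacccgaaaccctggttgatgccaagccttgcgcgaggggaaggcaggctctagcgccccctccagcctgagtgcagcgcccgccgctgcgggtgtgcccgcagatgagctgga
Grhpr: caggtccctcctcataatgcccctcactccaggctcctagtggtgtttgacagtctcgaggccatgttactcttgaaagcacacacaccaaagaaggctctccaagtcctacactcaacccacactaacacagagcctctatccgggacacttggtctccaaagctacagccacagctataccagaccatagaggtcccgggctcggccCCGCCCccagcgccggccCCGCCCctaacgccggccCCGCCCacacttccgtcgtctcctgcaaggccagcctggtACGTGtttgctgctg
The Oxct1 window held 1 ACGTG, on the minus strand with its leftmost base at position -97, counting the start as 1, and no GGGCGG. The Grhpr window held 1 ACGTG, on the plus strand beginning at position 36, and 3 GGGCGG on the minus strand. Of 32851 promoter windows of this length, 19.6% held ACGTG and 35.7% held GGGCGG on either strand. The longer palindrome CACGTG, an E-box that contains ACGTG, was in neither window and in 7.15% of all windows. The motif GCGTG, the other form of the HIF core, was in neither window and in 32.4% of all, and CCAAT was in neither and in 37.4% of all. The Aacs window held 5 GCGTG and no ACGTG, and each of 2 Bdh1 windows held 1 GCGTG and no ACGTG. No window of Acat1 was used. A match is a string of letters and not a bound site.

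Oxct1 was close to uniform within each group and separated between them. It was at 119.2, 131.1 and 122.4 in the libraries labelled knockout 1, 2 and 3, against 227.6, 232.9 and 224.1 in wild type replicates 1, 2 and 3. The highest library labelled knockout lay far below the lowest wild type library. The means were 124.2 ± 6.19 in the libraries labelled knockout and 228.2 ± 4.45 in the wild type libraries (SD, n = 3 each), so the mean was 45.6% lower. On the scale of log2(value + 1), used for every log2 change here, the change was -0.87, and it was -0.93, -0.82 and -0.87 in pairs 1, 2 and 3, where a pair is the libraries that share a replicate number. The level in each library rested on 3582 to 5226 reads in the knockout and 8522 to 10474 reads in the wild type libraries, and counting alone gives a relative error of at most 1.67%. The coefficient of variation was 4.98% in the libraries labelled knockout and 1.95% in the wild type libraries. Among the 2217 tested genes within 2-fold of its level the median coefficients were 9.90% and 11.4%. Set against genes near their own level, Aacs and Grhpr also lay below the medians in both groups, and Acat1 and Bdh1 above them. A low spread within groups can enter the choice of a gene on this contrast, so nothing is read from it.

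Grhpr had the larger fold difference of the pair at a lower level. It was at 16.9, 20.4 and 17.2 in the libraries labelled knockout 1, 2 and 3, against 39.7, 48.4 and 40.0 in wild type replicates 1, 2 and 3. The groups did not overlap, and replicate 2 was the highest in each. The means were 18.2 ± 1.94 in the libraries labelled knockout and 42.7 ± 4.90 in the wild type libraries (SD, n = 3 each), a mean 57.4% lower. The log2 change was -1.19, and the pairs gave -1.19, -1.21 and -1.17. Of 10533 tested genes, 48 had a lower log2 change than Grhpr and 86 had a lower one than Oxct1.

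Neither gene passed the planned whole-table test, which held the group alone. Both passed in the alternative fit that added the replicate number. With limma on log2(value + 1), two-sided and adjusted by Benjamini-Hochberg over 10533 genes, the adjusted p was 0.0125 for Oxct1 and 0.0125 for Grhpr with the replicate number as a block, and 0.0637 and 0.122 without it. In the blocked fit 2 of the 5 members were lower and 0 higher, where 0.873% of all tested genes passed, 0.741% lower and 0.133% higher; since the members were chosen on this contrast, nothing is read from that. Without the block 0 of the 5 passed, as did 0.00949% of tested genes. The labels do not say that equal numbers share a mouse. Both calls were lost when pair 2 or pair 3 was left out of the blocked fit, with adjusted p of 0.109 and 0.134 for Oxct1 and 0.109 and 0.123 for Grhpr, while the log2 changes stayed within -0.90 to -0.85 and -1.20 to -1.18 over the 3 such fits.

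**Figure D1:**
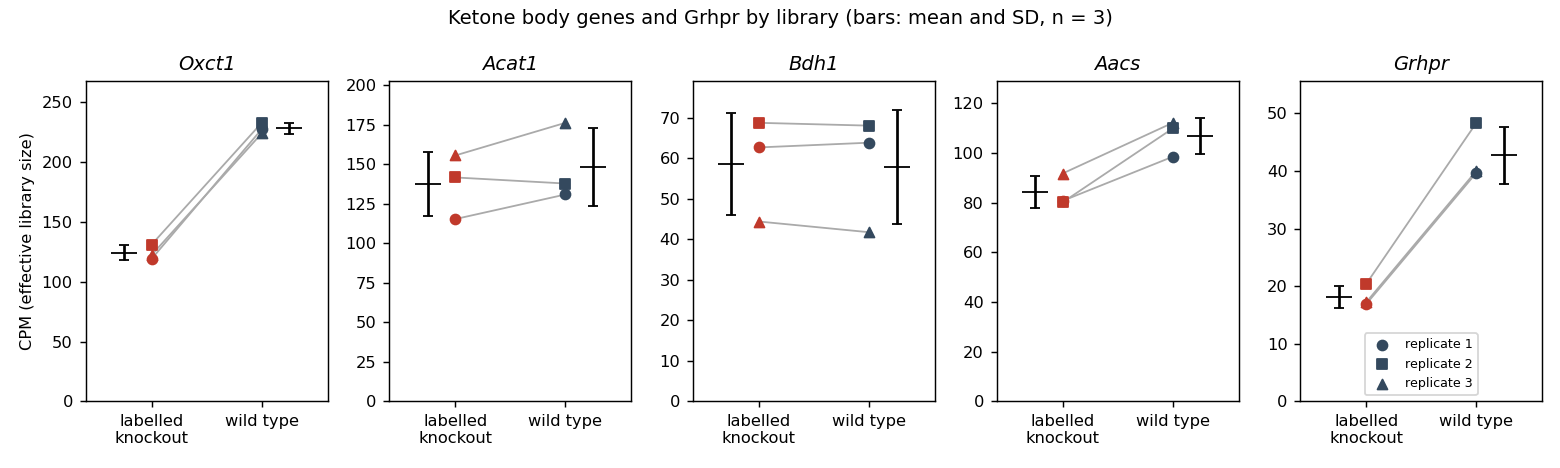
CPM of each of the 5 genes (vertical axes start at 0) in the 3 libraries labelled knockout and the 3 wild type libraries; grey lines connect equal replicate numbers and black marks give the mean with its SD. Oxct1 lay between 119.2 and 131.1 in the libraries labelled knockout and between 224.1 and 232.9 in wild type, while the Bdh1 lines are nearly flat.

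The enzyme that cleaves the product of Oxct1 did not separate by group. Acat1 was at 115.4, 141.7 and 155.6 in the libraries labelled knockout 1, 2 and 3, against 130.9, 137.9 and 176.3 in wild type replicates 1, 2 and 3. The groups overlapped, and in each of them replicate 1 was the lowest and replicate 3 the highest. The means were 137.6 ± 20.4 in the libraries labelled knockout and 148.4 ± 24.4 in the wild type libraries (SD, n = 3 each). The log2 change was -0.11 (limma adjusted p = 0.390 with the block), with -0.18, 0.04 and -0.18 in the pairs, and it turned above 0 when knockout replicate 1 or wild type replicate 3 was left out.

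Bdh1, which supplies acetoacetate from beta-hydroxybutyrate, varied between replicate numbers and hardly between groups. It was at 62.7, 68.8 and 44.4 in the libraries labelled knockout 1, 2 and 3, against 63.9, 68.1 and 41.8 in wild type replicates 1, 2 and 3. Replicate 3 was the lowest in both groups. The means were 58.6 ± 12.7 in the libraries labelled knockout and 57.9 ± 14.1 in the wild type libraries (SD, n = 3 each). The log2 change was 0.02, with -0.03, 0.01 and 0.09 in pairs 1, 2 and 3 (limma adjusted p = 0.826 with the block), and it was below 0 in 4 of 21 alternatives. A p above the threshold does not show that Bdh1 is equal in the groups.

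Aacs was lower in each pair without passing the test. It was at 80.7, 80.1 and 91.7 in the libraries labelled knockout 1, 2 and 3, against 98.4, 109.8 and 112.1 in wild type replicates 1, 2 and 3. The highest library labelled knockout was below the lowest wild type library. The means were 84.1 ± 6.53 in the libraries labelled knockout and 106.8 ± 7.31 in the wild type libraries (SD, n = 3 each). The mean was 21.2% lower and the log2 change -0.34 (limma adjusted p = 0.0840 with the block and 0.970 without). With Aacs, 3 of the 5 members had groups that did not overlap and were lower, as had 6.29% of all tested genes; 3.21% were apart and higher, and none of the 5. The same 3 were lower in all 3 pairs, as were 29.9% of all tested genes, while 16.7% were higher in all 3.

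The spread of each gene over the 6 libraries was split into the part between groups, the part between replicate numbers and the remainder, as shares of its sum of squares on the log2 scale. The group accounted for 99.0% in Oxct1, 95.9% in Grhpr and 80.0% in Aacs. The replicate number accounted for 99.2% in Bdh1 and 84.7% in Acat1. Over all tested genes the median share was 9.56% for the group and 74.5% for the replicate number, so Bdh1 and Acat1 lay on the side of most genes. These shares use the contrast on which the members were chosen and are a description.

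**Figure D2:**
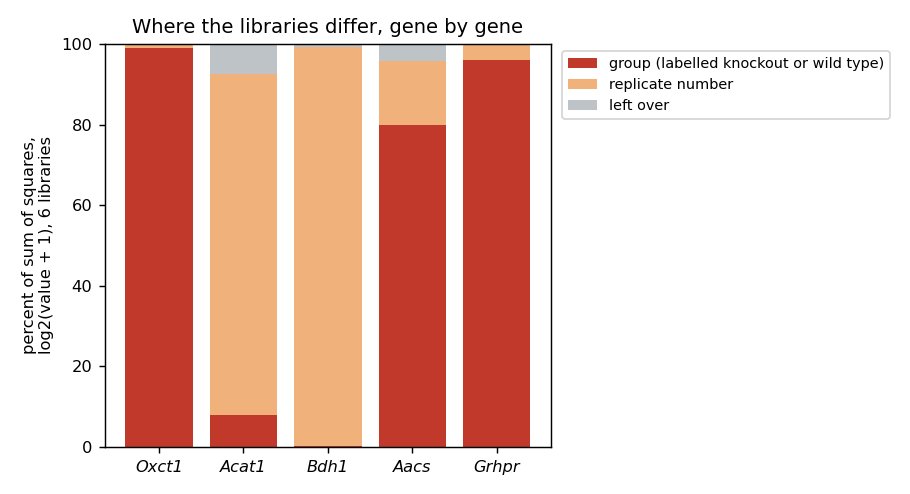
Percent of each gene's sum of squares of log2(value + 1) over the 6 libraries that lay between groups (red), between replicate numbers (orange) and in the remainder (grey). The group takes 99.0% in Oxct1 and 0.187% in Bdh1.

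Levels of different genes were compared per kilobase of merged exon length in GENCODE M21, which may differ from the annotation the authors counted on. In the libraries labelled knockout the order of the level per kilobase was Acat1 at 36.6 ± 5.44, Oxct1 at 33.6 ± 1.67, Aacs at 21.8 ± 1.69, Bdh1 at 15.1 ± 3.26 and Grhpr at 11.3 ± 1.21. Acat1 and Oxct1 overlapped there, as did Bdh1 and Grhpr. In the wild type libraries the order of the level per kilobase was Oxct1 at 61.7 ± 1.20, Acat1 at 39.5 ± 6.50, Aacs at 27.7 ± 1.90, Grhpr at 26.6 ± 3.06 and Bdh1 at 14.9 ± 3.64 (SD, n = 3 in each group). Aacs and Grhpr overlapped in the wild type libraries, whereas Oxct1 lay above the other 4 and Bdh1 below them. Thus Oxct1 was level with Acat1 in the libraries labelled knockout and above it in wild type.

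Ratios of Oxct1 RNA to Bdh1 RNA and to Acat1 RNA were lower in the libraries labelled knockout. The Oxct1 value divided by the Bdh1 value was 1.90, 1.91 and 2.76 in the libraries labelled knockout 1, 2 and 3, against 3.56, 3.42 and 5.37 in wild type replicates 1, 2 and 3. The Oxct1 value divided by the Acat1 value was 1.03, 0.925 and 0.787 in the libraries labelled knockout, against 1.74, 1.69 and 1.27 in the wild type libraries. Neither ratio overlapped between the groups, and neither is corrected for gene length. Bdh1 and Acat1 differed little between groups, so the ratios restate the Oxct1 difference on which that gene was chosen. Enzyme amounts and activities were not measured.

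Relatives of the ketone body enzymes were at trace levels or did not pass. Hmgcll1, an extramitochondrial lyase that can release acetoacetate, was at 22.9, 27.7 and 32.2 in the libraries labelled knockout and 14.2, 26.9 and 28.1 in the wild type libraries (log2 change 0.30). Oxct2a and Oxct2b, the testis forms of Oxct1, stayed at or below 0.133 in every library. Bdh2, a cytosolic relative of Bdh1, stayed at or below 0.366. Acat2, the cytosolic thiolase of sterol synthesis, was at 31.4, 32.3 and 36.6 in the libraries labelled knockout and at 43.1, 52.0 and 48.2 in the wild type libraries. Its groups did not overlap (log2 change -0.50), but it did not pass (limma adjusted p = 0.0670 with the block and 0.748 without). Acat3, its close paralog and able to share reads with it, had a log2 change of 0.18. In all, 0 of 3 tested genes of this list passed with or without the block. Of all tested genes, 0.873% passed with the block and 0.00949% without it, so 0 of 3 says little. The median log2 change of the 3 was 0.18, beside -0.03 over all tested genes.

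Carriers of ketone bodies were measured next, since monocarboxylate transporters move beta-hydroxybutyrate and acetoacetate as well as lactate. Slc16a1 (MCT1), the main importer in many cells, was at 600.7, 550.7 and 634.8 in the libraries labelled knockout and at 620.6, 633.4 and 629.6 in the wild type libraries (log2 change -0.08, not called). Its level per kilobase was 134.5 ± 9.56 in the libraries labelled knockout and 141.9 ± 1.49 in the wild type libraries, above each of the 5 members. Slc16a6, whose zebrafish relative exports ketone bodies from liver, had a log2 change of 0.05. Slc16a3 (MCT4), mainly a lactate exporter, fell to 3.43, 3.49 and 1.54 in the libraries labelled knockout, against 166.9, 76.6 and 37.5 in the wild type libraries (log2 change -4.43, limma adjusted p = 0.0146 with the block and 0.150 without). The chaperone subunits Bsg and Emb had log2 changes of -0.53 and 0.19 and did not pass. Slc16a7 (MCT2), the receptor for beta-hydroxybutyrate Hcar2 and the short-chain fatty acid receptor Ffar3 were each at 0.677 or less in every library. With the block, 1 of 5 tested genes was lower and 0 higher, where 0.741% of all tested genes were lower and 0.133% higher (median log2 change -0.08). The list was chosen with earlier results of these data known, so nothing is read from that count.

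**Figure D3:**
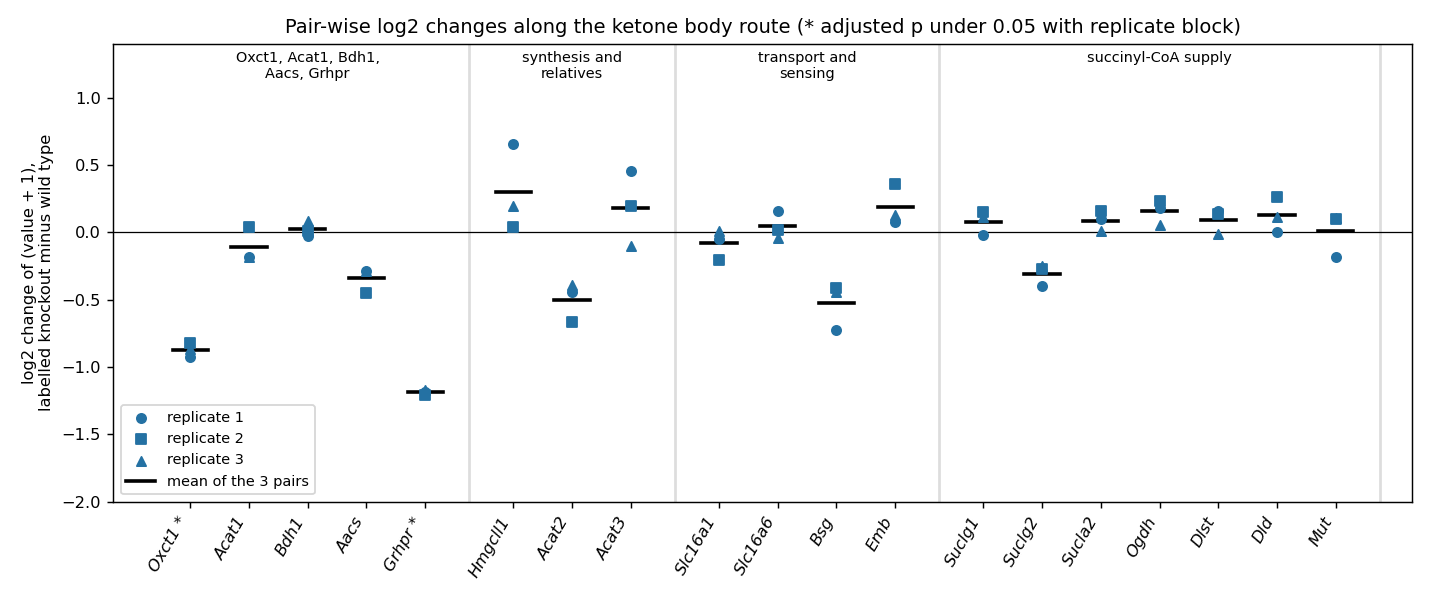
Difference in log2(value + 1) between the library labelled knockout and the wild type library of each pair (vertical axis), for the 5 genes and the tested relatives and genes of transport and succinyl-CoA supply. Symbols stand for the pairs, black bars for their mean, and asterisks for a limma adjusted p under 0.05 with the replicate block; Slc16a3, at a mean of -4.43, lies below the axis and is left out. Oxct1 and Grhpr carry the asterisk, at means of -0.87 and -1.19, and lie below the other genes drawn.

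The supply of succinyl-CoA, the donor that Oxct1 uses, was described by 7 genes, of which 0 passed in either fit (median log2 change 0.09). Of all tested genes, 0.873% passed with the block and 0.00949% without it, so a count of 0 in a short list says little. Suclg2, a GTP-specific subunit of succinyl-CoA ligase, was at 89.1, 96.9 and 79.7 in the libraries labelled knockout and at 117.9, 116.9 and 94.8 in the wild type libraries (log2 change -0.31, limma adjusted p = 0.0950 with the block). Sucla2, the ATP-specific subunit, had a log2 change of 0.09, Ogdh of the oxoglutarate dehydrogenase complex 0.16 and its shared subunit Dld 0.13. In the breakdown of branched-chain and some other amino acids, the leucine and tyrosine routes yield acetoacetate. The isoleucine route yields the relatives of acetoacetyl-CoA that Acat1 also splits. This breakdown was described by 22 tested genes, of which 0 passed in either fit (median log2 change -0.08). That count too is near the shares of all tested genes, and nothing is read from it. The smallest p without the block belonged to Gstz1 of tyrosine breakdown (log2 change -0.31), to Hsd17b10 (-0.28) and Echs1 (-0.19) of isoleucine and fatty acid oxidation, and to Bckdk, the kinase that inhibits the branched-chain dehydrogenase (-0.20).

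On the cytosolic side, where Aacs acts, most genes of acetyl-CoA and mevalonate metabolism were lower in each pair. In the fit with the block 1 passed, and 0 passed without it. Pmvk, phosphomevalonate kinase, fell to 12.1, 18.3 and 15.3 in the libraries labelled knockout, against 19.9, 29.3 and 23.6 in the wild type libraries. Its log2 change was -0.64 (limma adjusted p = 0.0414 with the block and 0.9998 without). The citrate lyase Acly had a log2 change of -0.35, the isomerase Idi1 -0.39, the decarboxylase Mvd -0.37 and mevalonate kinase Mvk -0.38, none past the test. Of 11 tested genes, 9 were lower in all 3 pairs and 0 were higher in all 3, where 29.9% of all tested genes were lower and 16.7% higher. With the block 1 was lower, where 0.741% of all tested genes were. The median log2 change was -0.35, beside -0.03 over all tested genes. This list was chosen with earlier results of these data known, so its counts and median are a description and nothing is read from them. Among regulators of ketone and lipid metabolism was Cpt1a, which admits fatty acids to mitochondrial oxidation. It rose to 78.8, 95.7 and 86.8 in the libraries labelled knockout, against 45.7, 62.5 and 50.4 in the wild type libraries. Its log2 change was 0.72 (limma adjusted p = 0.0313 with the block and 0.502 without). The sterol regulators Srebf1 and Srebf2 had log2 changes of -0.54 and -0.36 and the mitochondrial deacylases Sirt3 and Sirt5 -0.00030 and -0.20, none of them called. Ppara, Ppargc1a, Fgf21 and Foxa2, which drive ketogenesis or its hormone signal in liver, were each at 0.532 or less in every library.

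Around Grhpr, most dedicated glyoxylate enzymes were near absent from these cells. Hao1, Hao2, Agxt, Agxt2, Hoga1 and Dao, which make or remove glyoxylate in liver or kidney, and Prodh2 were each at 0.399 or less in every library. Ldha, lactate dehydrogenase, which also converts glyoxylate, fell to 1145, 1274 and 1055 in the libraries labelled knockout, against 3764, 2921 and 2414 in the wild type libraries. Its log2 change was -1.37 (limma adjusted p = 0.0313 with the block and 0.168 without). The serine pathway genes Psph (0.18) and Psat1 (0.07), whose route shares the hydroxypyruvate and serine carbon skeleton, did not pass, nor did the mitochondrial Shmt2 (-0.31) or the isomerase Hyi (-0.29). Of 10 tested genes of this list, 1 was lower with the block, as were 0.741% of all tested genes, and 9 were not called (median log2 change -0.08). As this list too was chosen with earlier results known, nothing is read from that count.

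The genes whose profile over the 6 libraries lay nearest to Oxct1 were found by the root mean square distance between centred log2 values, over 10532 other tested genes. They were Clybl, a mitochondrial citramalyl-CoA lyase (distance 0.0785), Snx25, a sorting nexin (0.0963), Kcnq5, a potassium channel subunit (0.114), Fdps, farnesyl diphosphate synthase (0.119), and Rere, a transcriptional corepressor (0.128). The median distance to Oxct1 over all other genes was 0.471. Clybl was at 5.52, 6.30 and 6.50 in the libraries labelled knockout and at 11.2, 13.0 and 10.9 in the wild type libraries.

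The genes nearest to Grhpr were Zmym3, a zinc finger protein (0.130), Scd2, a stearoyl-CoA desaturase (0.153), Haao, an enzyme of tryptophan breakdown (0.155), Pdk1, a pyruvate dehydrogenase kinase (0.173), and Oxct1 itself (0.180). The median distance to Grhpr was 0.625. Seen from Oxct1, Grhpr was the neighbour of rank 21. With each profile also divided by its own SD, 0 of the 5 neighbours of Oxct1 and 2 of the 5 of Grhpr, Zmym3 and Oxct1, stayed among the nearest 5. The libraries carry the group difference that chose Oxct1 and Grhpr, so neighbours are genes with a like difference, and nothing is read from them about function or control.

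**Figure D4:**
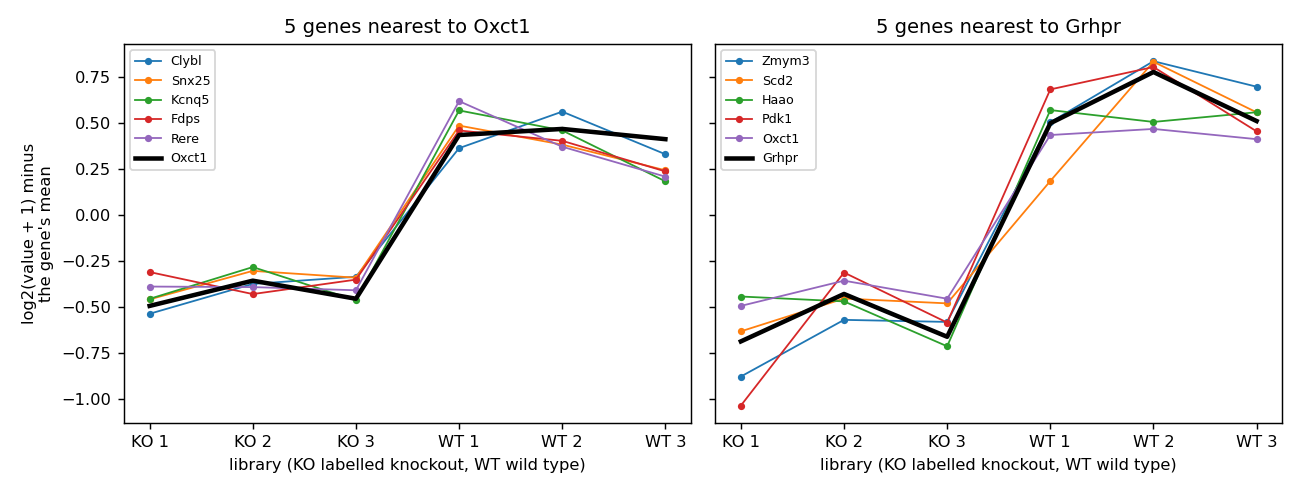
Log2(value + 1) minus the gene's own mean (vertical axis) in each library labelled knockout (KO) and wild type (WT), for Oxct1 and Grhpr (black) and the 5 genes nearest to each. The libraries labelled knockout lie below 0 and the wild type libraries above 0 for every gene drawn, and Clybl is the closest to Oxct1, at a distance of 0.0785.

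Myeloid transcripts differed far more between the libraries labelled knockout than Oxct1 and Grhpr did. Within the libraries labelled knockout the marker sum, Oxct1 and Grhpr were all lowest in replicate 1 and highest in replicate 2, and within the wild type libraries the marker sum and Grhpr were. The part of myeloid RNA in the members' values was not tested. In bulk RNA, fewer cells of a type and less RNA per cell cannot be told apart. Of the 15 myeloid markers 13 were tested, and their median log2 change was -0.57, 2.78 and 2.29 in pairs 1, 2 and 3. Lyz2, the lysozyme of macrophages, was at 10.7, 1471 and 820.3 in knockout replicates 1, 2 and 3 and at 20.4, 124.5 and 86.0 in wild type replicates 1, 2 and 3. In pair 1 the marker sum was 36.3 in the library labelled knockout and 58.8 in the wild type library. The log2 change there was -0.93 for Oxct1 and -1.19 for Grhpr. In pairs 2 and 3 it was -0.82 and -0.87 for Oxct1, and -1.21 and -1.17 for Grhpr. Without knockout replicates 2 and 3 the log2 changes were -0.93 for Oxct1, -1.28 for Grhpr, -0.40 for Aacs, -0.35 for Acat1 and 0.14 for Bdh1. That fit sets a lone library against 3 and assumes that it varies like the wild type ones, and 0 of the 5 genes passed in it.

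**Figure D5:**
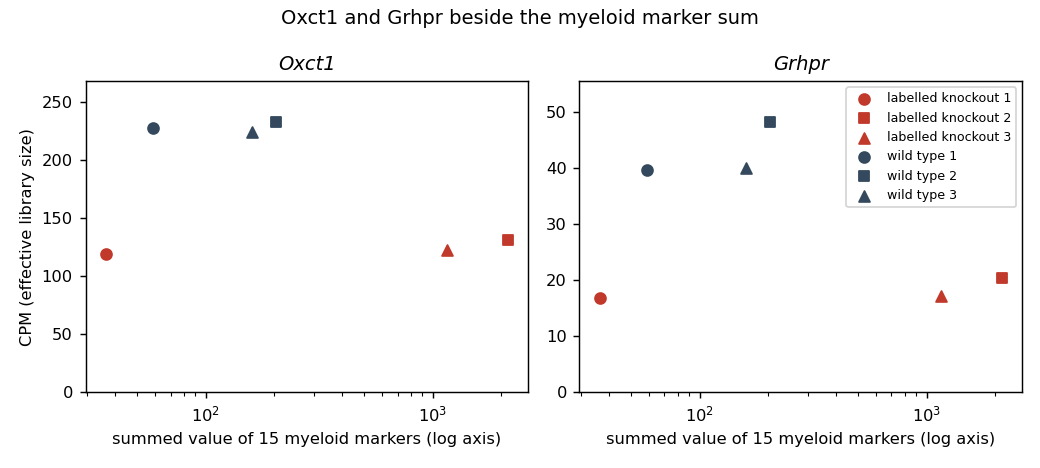
CPM of Oxct1 and Grhpr (vertical axes start at 0) against the summed CPM of 15 myeloid markers (log axis) in each library. In the libraries labelled knockout Oxct1 was at 119.2 to 131.1, Grhpr at 16.9 to 20.4 and the marker sum at 36.3 to 2154. All of them were lowest in replicate 1 and highest in replicate 2.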

How the data were processed

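RNA was measured in 6 libraries, 3 per group. Tools named in the submitters' processing notes, without role or order, are CASAVA, STAR 2.4.2a, HTSeq and edgeR, with build mm9; no source used here names the gene annotation or the strandedness of counting. The deposited values are a signal on the scale of CPM: reads of a gene over an effective library size. In each library 100% of values were whole multiples of a single step (tolerance 0.01 reads), so no length scaling is in them although the table is named for FPKM.

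The 10533 genes whose mean value over all libraries reached 1 were tested on log2(value + 1) with limma 3.58.1 in R 4.3.3 (trended prior, Benjamini-Hochberg, threshold 0.05). The planned main fit held the group alone, and the replicate block was an alternative. On the recovered reads, edgeR 4.0.16 called 0 genes (39 with the replicate block) and DESeq2 1.42.0 called 110 (738 with it). Libraries of equal number deviated together from their group means, with correlations of 0.73, 0.73 and 0.84, so the numbers were taken to pair them; this comes from the data, not the labels. No 2 libraries of a group were alike within counting noise. The series calls them biological replicates without naming animals, so p-values cover the spread among these libraries.

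The members and the 12 gene lists (131 entries, of which 1, Ighm, was not analysed here) were chosen with earlier results of these data known. Named genes are the 5 members, the genes of the relatives and transport lists, in each other pathway list those called plus up to 4 with the smallest unpaired p, the 5 nearest profiles to Oxct1 and to Grhpr, Prdm15, and markers with the highest mean. Genes of those lists given as near absent, Cd8a, Cd2, Lck, Pecam1, Gldc, Phgdh and Vpreb1 were named after their values were seen. Some genes of ketone body synthesis are not reported here. Promoters matched 4 of the 5 genes by symbol. Plots used Python 3.11.15 and matplotlib 3.10.9.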

Additional observations from a re-analysis of the deposited data

How the results depend on the processing

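The 5 genes were refitted under 21 alternatives. Oxct1 kept its direction in each (log2 change -0.93 to -0.82), as did Grhpr (-1.28 to -1.04) and Aacs (-0.40 to -0.29). Oxct1 passed with the replicate block (-0.87), the replicate block without replicate 1 (-0.85), edgeR with the block (-0.85), DESeq2 (-0.85) and DESeq2 with the block (-0.85). Grhpr passed in the same settings (-1.19, -1.19, -1.21, -1.21 and -1.21), and Aacs passed with DESeq2 and the block (-0.32) and with the block without replicate 1 (-0.37). Leaving out a library without the block gave -0.91 to -0.84 for Oxct1, -1.27 to -1.10 for Grhpr, -0.40 to -0.30 for Aacs, -0.20 to 0.02 for Acat1 and -0.19 to 0.21 for Bdh1. Acat1 turned to 0.01 without knockout replicate 1 and to 0.023 without wild type replicate 3. Bdh1 turned to -0.03, -0.10 and -0.19 without knockout replicate 1, knockout replicate 2 and wild type replicate 3, and to -0.0059 in the blocked fit without replicate 3, whose range over the pairs was -0.0059 to 0.050.

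The number of genes called was 1 (Adgrl1) without the block, with 428 at an unadjusted p under 0.05, and 92 with the replicate block, 14 higher and 78 lower. It was 0 with quantile normalization, pseudocounts of 0.1 and 5, no filter, edgeR (582 at an unadjusted p under 0.05), any library left out, and knockout replicates 2 and 3 left out. It was 2 with a minimum mean of 5, 39 with edgeR and the block, 110 with DESeq2 and 738 with DESeq2 and the block. Leaving out a pair from the blocked fit gave 0 to 840, with 840 without replicate 1 and 0 without replicate 2 or 3. The cause of these differences was not tested. The block changed the calls of Oxct1, Grhpr, Slc16a3, Pmvk, Cpt1a and Ldha and of no other gene of the pathway lists. Counting error was at most 4.44% for any of the 5 genes; trace genes such as Oxct2a rest on a few reads.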

Other observations

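Some genes of the glyoxylate and hydroxypyruvate list and of the B-lineage list followed the replicate number across both groups, as Bdh1 and Acat1 did; these were chosen after their values were seen. Gldc, the glycine decarboxylase, was at 0.366, 22.1 and 152.5 in knockout replicates 1, 2 and 3 and at 0.668, 6.32 and 116.8 in wild type replicates 1, 2 and 3. Phgdh, which opens serine synthesis, was at 574.9, 341.6 and 330.3 in the libraries labelled knockout and at 570.0, 337.2 and 333.8 in the wild type libraries, highest in replicate 1 of each group. Vpreb1, a surrogate light chain gene of early B cells, was at 30.8, 247.4 and 222.7 in the libraries labelled knockout and at 55.8, 268.3 and 268.8 in the wild type libraries, lowest in replicate 1 of each group. None of these passed between the groups in either limma fit.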
